A study of Mus musculus with 2 samples.

Results

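The 8 genes described here encode the main parts of the pulmonary surfactant system: the surfactant proteins Sftpc, Sftpb, Sftpa1 and Sftpd, and Abca3, Lamp3, Napsa and Slc34a2. They were taken by symbol from the gene table of the 2 libraries, which lists 27998 genes, and each symbol matched 1 row. The data are droplet single-cell RNA-seq counts (10x Genomics 3′ chemistry, with unique molecular identifiers, UMIs) from dissociated whole lungs of 3-month-old male C57Bl/6J mice. Each library came from 1 mouse, harvested 14 days after a dose of 100 µg given into the trachea. The labels name titanium dioxide (TiO2) and crocidolite asbestos for both samples alike and call the mice control and fibrosis, without saying which particle each received. With 1 mouse per group, a difference between the libraries has no replicate check, the mouse, the library and the condition cannot be told apart, and every interval below covers counting error only.

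Surfactant is a film of phospholipid and protein that lowers surface tension in the air spaces, and alveolar type 2 (AT2) epithelial cells make, store and recycle it. Sftpb and Sftpc encode small hydrophobic proteins that help spread the lipid, while Sftpa1 and Sftpd encode collectins, secreted lectins of innate defence that are also made by airway cells. Abca3 pumps phospholipid into the lamellar body, the storage organelle of AT2 cells, whose membrane also carries Lamp3. Napsa encodes napsin A, an aspartic protease that takes part in cutting pro-SP-B, and Slc34a2 encodes a sodium-phosphate cotransporter of the AT2 cell surface.

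Depth was similar: 36632591 UMIs over 8280 control cells (median 3783.5 in a cell) and 38090308 UMIs over 7173 fibrosis cells (median 4292). After a filter on detected genes and mitochondrial UMIs, 8025 and 6945 cells were kept. The libraries shared 89 cell barcodes, of which 8 control and 9 fibrosis cells were AT2 cells. AT2 cells were defined without the 8 genes, by at least 2 UMIs of Cxcl15, a chemokine, and at least 1 of Etv5, a transcription factor of AT2 maintenance, with cells that also passed the marker gate of another class left out. This gave 754 AT2-like control cells and 1253 AT2-like fibrosis cells, called AT2 cells here. Such a gate is a range of marker counts, not a cell type. Of 999 control and 1681 fibrosis cells that passed it, 245 and 428 were left out for markers of other classes. A larger part was left out of the other epithelial classes. It was 153 of 185 control and 164 of 217 fibrosis cells for club, and 83 of 107 and 142 of 181 for AT1. For ciliated cells it was 93 of 147 and 112 of 164. The rule also removes cells of these classes that meet the Cxcl15 and Etv5 condition, so their levels below describe the cells that remained.

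Markers not used in the gate set the gated cells apart from B cells. They were chosen with earlier results of these data known, so they are not independent of the data. All 10 check genes were higher in AT2 cells than in B cells, by 7.79-fold (Lyz2, fibrosis) to 77.3-fold (S100g, control). Among them was Nkx2-1, the lung epithelial transcription factor. Other epithelial cells could pass this comparison too. In control and fibrosis, Nkx2-1 was at 525 and 442 CPM in AT1 cells, above its 364 and 354 CPM in AT2 cells. Median UMIs per AT2 cell were 0 for the B cell, T cell, alveolar macrophage, ciliated, endothelial and mesenchymal panels, and 2 for the migratory dendritic cell panel. The AT1 panel stood at a median of 7 UMIs in both libraries, and the club panel at 21 in control and 15 in fibrosis. Near the gate, 134 control and 227 fibrosis cells met the Cxcl15 condition with no Etv5 UMI, and 212 and 353 had exactly 1. Their summed share of the 8 genes was 25.02% and 22.99% with no Etv5 UMI, and 25.4% and 22.9% with 1. The Cxcl15 edge differed in fibrosis: 16 cells within the gate with 2 to 4 Cxcl15 UMIs had a share of 10.1% and 67447 CPM of Sftpc. In control only 2 cells lay there, with a share of 27.0%.

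In AT2 cells the 8 genes together took 25.5% of all UMIs in control and 22.8% in fibrosis. Sftpc alone gave 79.8% of the summed UMIs of the 8 genes in control and 77.3% in fibrosis, Sftpa1 10.8% and 12.0%, and Sftpb 4.67% and 4.76%. The other 5 genes each gave under 2.5% in both libraries. A UMI counts a captured 3′ end, so no length correction applies, but capture may differ between genes. On that scale the order from highest to lowest was Sftpc, Sftpa1, Sftpb, then Slc34a2 and Sftpd, which changed places between the libraries, then Napsa, Lamp3 and Abca3. In GRCm38 (GENCODE M21) Sftpc (ENSMUSG00000022097) lies at chr14:70520949-70524081 on the minus strand, and the collectin genes Sftpa1 (ENSMUSG00000021789, chr14:41131782-41136452, plus) and Sftpd (ENSMUSG00000021795, chr14:41172214-41185149, minus) lie on the same chromosome. Sftpb lies at chr6:72304610-72314371 (plus), Lamp3 at chr16:19653378-19706375 (minus), Slc34a2 at chr5:53038081-53071664 (plus) and Abca3 at chr17:24351950-24410201 (plus), where exons of D330041H03Rik overlap it on the opposite strand. All 8 are protein-coding.

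None of the 8 genes differed by 1.5-fold between the libraries in AT2 cells. Sftpc had the lowest ratio of fibrosis to control and Sftpd the highest, and Sftpa1, Abca3 and Napsa had counting intervals that held 0. Of 4395 genes with a mean of at least 20 CPM (counts scaled to 1000000 UMIs of the class in a library), 2.23% were at least 1.5-fold higher in fibrosis and 1.46% at least 1.5-fold lower, 3.69% in all, against 0 of the 8 in either direction. The median log2 ratio of all 4395 genes was 0.05, and that of the 8 was 0.00.

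The hydrophobic proteins were both lower in fibrosis. Sftpc stood at 202975 CPM in control and 175851 CPM in fibrosis, a log2 ratio of -0.21 (95% counting interval -0.21 to -0.20). Sftpb stood at 11877 CPM in control and 10820 CPM in fibrosis (-0.13, -0.15 to -0.12). With every AT2 cell thinned to 1400 UMIs, Sftpc had a median of 248 UMIs per control cell and 174 per fibrosis cell. The 10th to 90th percentiles ran from 132.3 to 406 in control and from 87 to 390 in fibrosis, so the cells of the 2 libraries overlapped widely. Sftpb had thinned medians of 16 and 14 UMIs.

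The collectins differed from each other. Sftpa1 was at 27536 CPM in control and 27383 CPM in fibrosis (log2 ratio -0.01, -0.02 to 0.00), with a thinned median of 35 UMIs in both. Sftpd was at 4091 CPM in control and 4949 CPM in fibrosis (0.27, 0.25 to 0.30), with thinned medians of 5 and 6.

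Among the genes of lipid loading, processing and phosphate transport, Slc34a2 was higher in fibrosis and Lamp3 lower. Slc34a2 stood at 4230 CPM in control and 4787 CPM in fibrosis (log2 ratio 0.18, 0.15 to 0.20). Lamp3 stood at 1538 CPM and 1423 CPM (-0.11, -0.15 to -0.07). The level of Napsa was 1649 CPM in control and 1665 CPM in fibrosis (0.01, -0.03 to 0.06), and that of Abca3 606 CPM and 628 CPM (0.05, -0.02 to 0.12). Abca3 was near the detection limit of a single cell: after thinning, 54.1% of control and 59.1% of fibrosis AT2 cells had a UMI of it. For scale, Lcn2, a lipocalin raised in injured epithelium, went from 805 to 2076 CPM in the same cells (1.37).

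**Figure D1:**
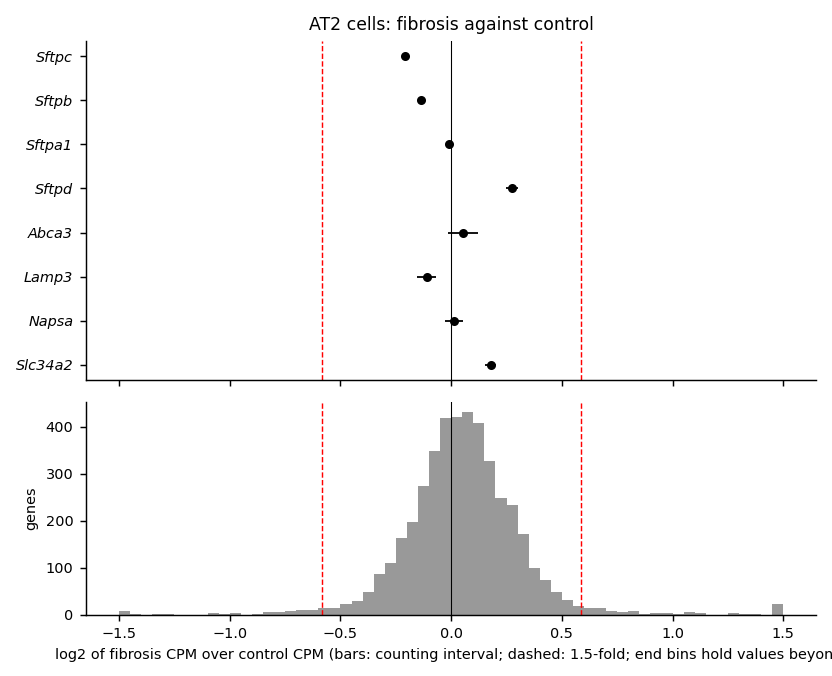
Upper panel, log2 ratio of fibrosis over control CPM in AT2 cells for each of the 8 genes (points) with its counting interval (bars); lower panel, the number of genes at each log2 ratio among the 4395 genes compared. All 8 points lie between the dashed 1.5-fold lines, from -0.21 for Sftpc to 0.27 for Sftpd.

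AT2 cells of both libraries fell into a lower and a higher range of the summed share of the 8 genes. The fullest 2-point bins below and above 25% were 14 to 16% and 32 to 34% in control and 12 to 14% and 32 to 34% in fibrosis. Only 32 control and 23 fibrosis cells lay between 24 and 26%. The emptiest bins between the peaks were 26 to 28% in control (27 cells) and 22 to 24% in fibrosis (20 cells). A split at 25%, chosen after the values were seen, put 416 control cells (55.2%, exact binomial interval 51.5 to 58.8) and 770 fibrosis cells (61.5%, 58.7 to 64.2) in the lower range. Since the split uses the genes themselves, the levels on its sides are a description.

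**Figure D2:**
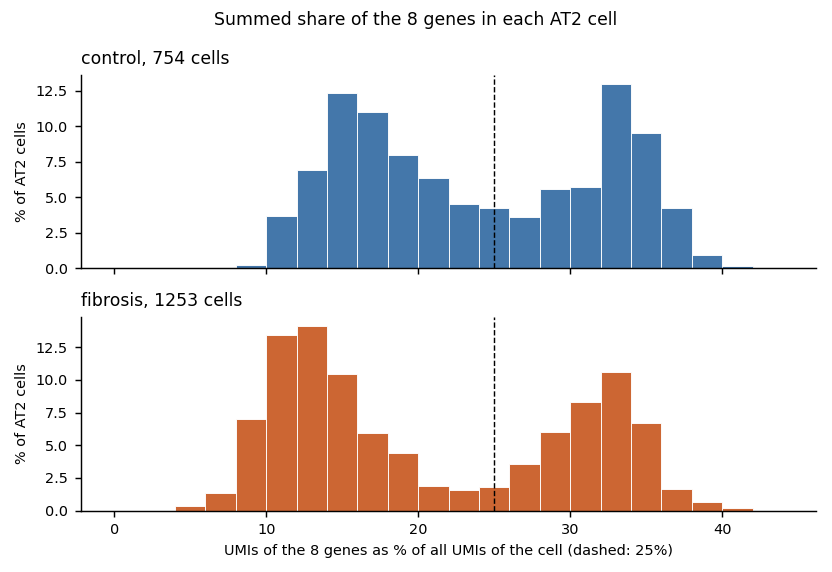
Share of AT2 cells (vertical axis, percent) in each 2-point bin of the summed share of the 8 genes in a cell's UMIs (horizontal axis, percent), for 754 control and 1253 fibrosis cells. Both libraries show a low and a high group of cells on either side of the dashed line at 25%.

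The 8 genes did not all follow their sum. Sftpc had 129894 CPM in the lower and 265319 CPM in the higher range in control (2.04-fold), and 95288 and 259616 CPM in fibrosis (2.72-fold). Napsa followed it, from 864 to 2319 CPM in control and from 918 to 2443 CPM in fibrosis, 2.69-fold and 2.66-fold. Sftpb, Sftpa1 and Sftpd were 1.36-fold to 1.63-fold higher in the higher range. Slc34a2 went the other way, at 5232 and 3376 CPM in control and 5877 and 3654 CPM in fibrosis, and Lamp3 and Abca3 were also lower in the higher range, at 0.689 to 0.700 times the lower range's level. A larger share of Sftpc leaves less of the total for other genes, so the comparison was repeated per UMI of all other genes: Slc34a2 was then at 0.788 and 0.786 times, Lamp3 at 0.850 and 0.871 times and Abca3 at 0.849 and 0.886 times in control and fibrosis.

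Other measures moved with the range. Median UMIs per cell were 4969 in the lower and 7338.5 in the higher range in control, and 4661 and 7587 in fibrosis. These totals hold the UMIs of the surfactant genes that set the ranges, which widens the gap. Without those UMIs the medians were closer, at 4151 and 4919 in control, and 4027 and 5138 in fibrosis. Median mitochondrial shares were 6.50% and 4.49% in control, and 6.13% and 4.03% in fibrosis. Over cells, the Spearman correlation of the summed share with total UMIs was 0.53 in control and 0.54 in fibrosis, and with the mitochondrial share -0.65 and -0.61. The mitochondrial shares and the correlations also rest on totals that hold the UMIs of those genes, and were not repeated without them. The part of depth and of the mitochondrial share in the 2 ranges was not tested.

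The difference in Sftpc between the libraries was larger in the lower range. There it went from 129894 CPM in control to 95288 CPM in fibrosis (log2 ratio -0.45, -0.45 to -0.44), against -0.03 (-0.04 to -0.03) in the higher range. Sftpd was higher in fibrosis in both ranges, by 0.34 (0.30 to 0.39) and 0.29 (0.25 to 0.32). Lamp3 was lower by similar amounts in both, at -0.13 and -0.15. Sftpc makes up most of the sum that sets the ranges, so the cut itself bounds its level within each range. The ratios within ranges are therefore a description.

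Over AT2 cells thinned to 1400 UMIs, the genes formed the same pair of groups. The cells and genes are those that set the ranges, so this is not a separate observation. Sftpc, Sftpb, Sftpa1, Sftpd and Napsa were positively correlated in 10 of 10 pairs, with Spearman values from 0.29 to 0.52 over 754 control cells and from 0.22 to 0.53 over 1253 fibrosis cells. Abca3, Lamp3 and Slc34a2 were positively but weakly correlated in 3 of 3 pairs, from 0.12 to 0.21 and from 0.08 to 0.20, too weak in such sparse counts to be read further. Between the groups all 15 pairs were negative in both libraries, down to -0.42 and -0.44 for Sftpc with Slc34a2. Cells within a library share its preparation, and a fixed total makes a dominant gene pull others down. With UMIs of all other genes as the scale, the pairs within each group stayed positive, and 0 of 15 pairs between the groups were positive in control and 3 of 15 in fibrosis.

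**Figure D3:**
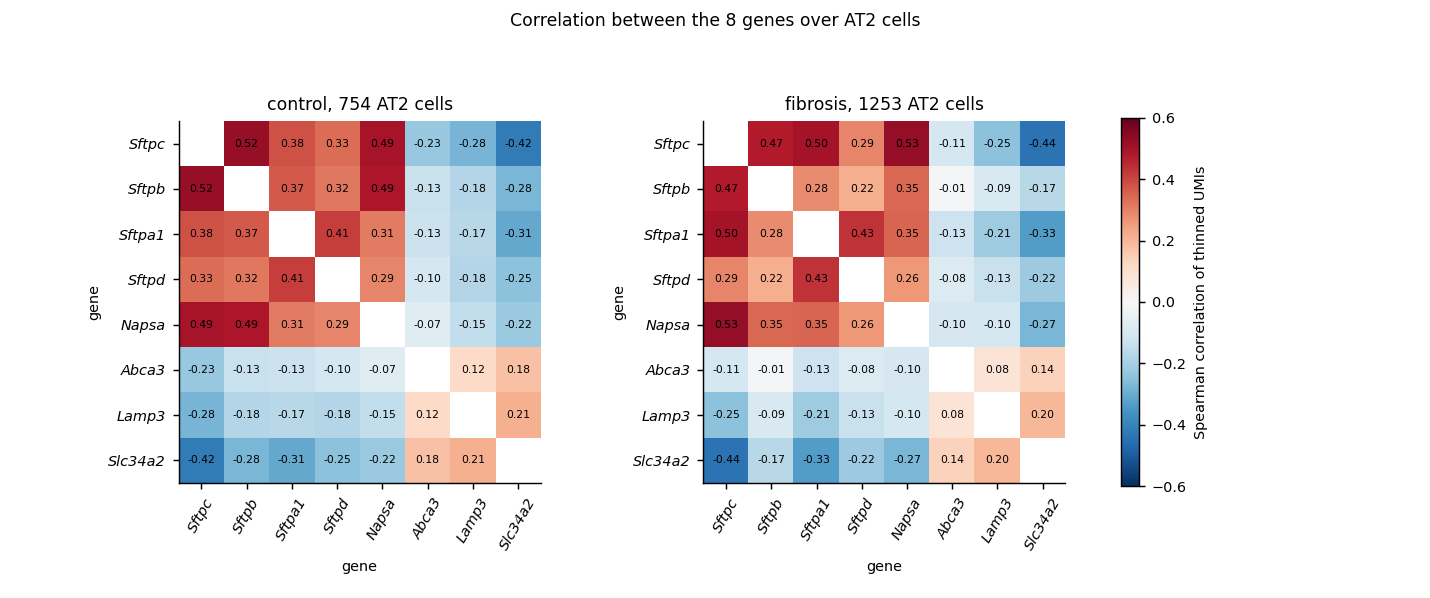
Spearman correlation between each pair of the 8 genes over AT2 cells thinned to 1400 UMIs, control (754 cells) on the left and fibrosis (1253 cells) on the right; red is positive and blue negative. The upper left block of 5 genes is red in both libraries, and the blocks that join it to Abca3, Lamp3 and Slc34a2 are blue.

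The stretches before the starts of 2 genes from each group are shown because the 4 genes stand on either side of that division. Sftpc, Sftpd and Napsa had no entry among the promoters used, so only Sftpb and Sftpa1 stand for their group. They come from RefSeq (GRCm38.p6), run 5′ to 3′ on the gene's strand, and leave out bases that an annotated exon covers. Sftpb spans chr6:72304360-72304609 (plus), Sftpa1 chr14:41131538-41131781 (plus), Abca3 chr17:24351773-24351949 (plus) and Lamp3 chr16:19706376-19706615 (minus). Capitals mark every match, on either strand, to CACTNNAG or CAAG (forms of the Nkx2-1 site), TGTTT with any base and a C after it (Foxa), TTNNGNAA (C/EBP) or AGATAA, the site of the zinc-finger factor Gata6 and its relatives.
Sftpb: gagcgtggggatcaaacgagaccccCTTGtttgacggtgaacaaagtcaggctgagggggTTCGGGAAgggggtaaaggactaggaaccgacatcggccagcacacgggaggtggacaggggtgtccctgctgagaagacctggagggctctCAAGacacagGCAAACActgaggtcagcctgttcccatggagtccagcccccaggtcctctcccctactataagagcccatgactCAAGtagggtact
Sftpa1: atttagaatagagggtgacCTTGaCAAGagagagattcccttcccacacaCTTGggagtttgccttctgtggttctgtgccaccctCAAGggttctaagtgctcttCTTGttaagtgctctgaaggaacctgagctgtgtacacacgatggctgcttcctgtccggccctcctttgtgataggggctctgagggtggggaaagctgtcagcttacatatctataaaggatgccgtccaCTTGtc
Abca3: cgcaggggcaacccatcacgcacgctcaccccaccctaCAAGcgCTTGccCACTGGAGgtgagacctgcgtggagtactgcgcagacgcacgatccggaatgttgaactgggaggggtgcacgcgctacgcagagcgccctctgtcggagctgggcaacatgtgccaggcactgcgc
Lamp3: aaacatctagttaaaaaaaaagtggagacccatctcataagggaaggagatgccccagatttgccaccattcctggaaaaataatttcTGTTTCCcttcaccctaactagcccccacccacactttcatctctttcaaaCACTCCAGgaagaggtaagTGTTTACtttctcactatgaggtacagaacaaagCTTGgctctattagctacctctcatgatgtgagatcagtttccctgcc

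Searched over the 250 bases before each start, the matches printed overlapped in none of these 4 genes. Sftpa1 held 6 matches to CAAG and none to the longer motifs. Sftpb held 3 matches to CAAG, 1 to the Foxa motif and 1 to TTNNGNAA. Lamp3 held CACTNNAG once, the Foxa motif in 2 places and CAAG once, and Abca3 held CACTNNAG once and CAAG in 2 places. The RefSeq start used for Slc34a2 lies inside the gene as GENCODE annotates it, and annotated exons reach into its window (chr5:53049103-53049352), which is not printed and held 1 palindromic match to TTNNGNAA. Of 32851 promoters in the table, 86.6% held CAAG, 12.9% CACTNNAG, 17.8% the Foxa motif, 36.8% TTNNGNAA and 9.99% AGATAA. These matches describe the letters only, and CAAG is present in most promoters.

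The genes also differed in level between Lcn2 states inside a library. AT2 cells with at least 10 Lcn2 UMIs per 10000 made up 23.2% of control and 56.9% of fibrosis AT2 cells. Sftpd was at 3845 CPM in Lcn2-low and 4786 CPM in Lcn2-high control cells (log2 0.32, 0.27 to 0.36), and at 3949 and 5558 CPM in fibrosis cells (0.49, 0.46 to 0.53). Napsa was also higher in Lcn2-high cells, by 0.35 in control and 0.33 in fibrosis, and Sftpc by 0.13 and 0.32, while Slc34a2 was lower by values of -0.06 and -0.13. Within Lcn2-low cells the fibrosis over control ratio of Sftpd was 0.04 (0.00 to 0.08), and within Lcn2-high cells 0.22 (0.17 to 0.26). For Sftpc the values were -0.38 and -0.19. Lcn2-high cells were deeper, with median UMIs of 6861 against 5461 in control and 5983 against 4757.5 in fibrosis, and the part of depth in these differences was not tested.

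Outside AT2 cells, UMIs of Sftpc were found in every class. T cells, which do not make surfactant, had 1636 CPM of Sftpc in control and 2962 CPM in fibrosis, 124-fold and 59.4-fold below AT2 cells. After thinning, 88.8% of control and 90.2% of fibrosis B cells had a Sftpc UMI, with a median of 2 UMIs in both, against 100% of AT2 cells. Median depths before thinning were 1964 and 2675 UMIs in B cells and 5717.5 and 5363 in AT2 cells. A Sftpc UMI in a cell is therefore no sign of expression in these libraries.

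**Figure D4:**
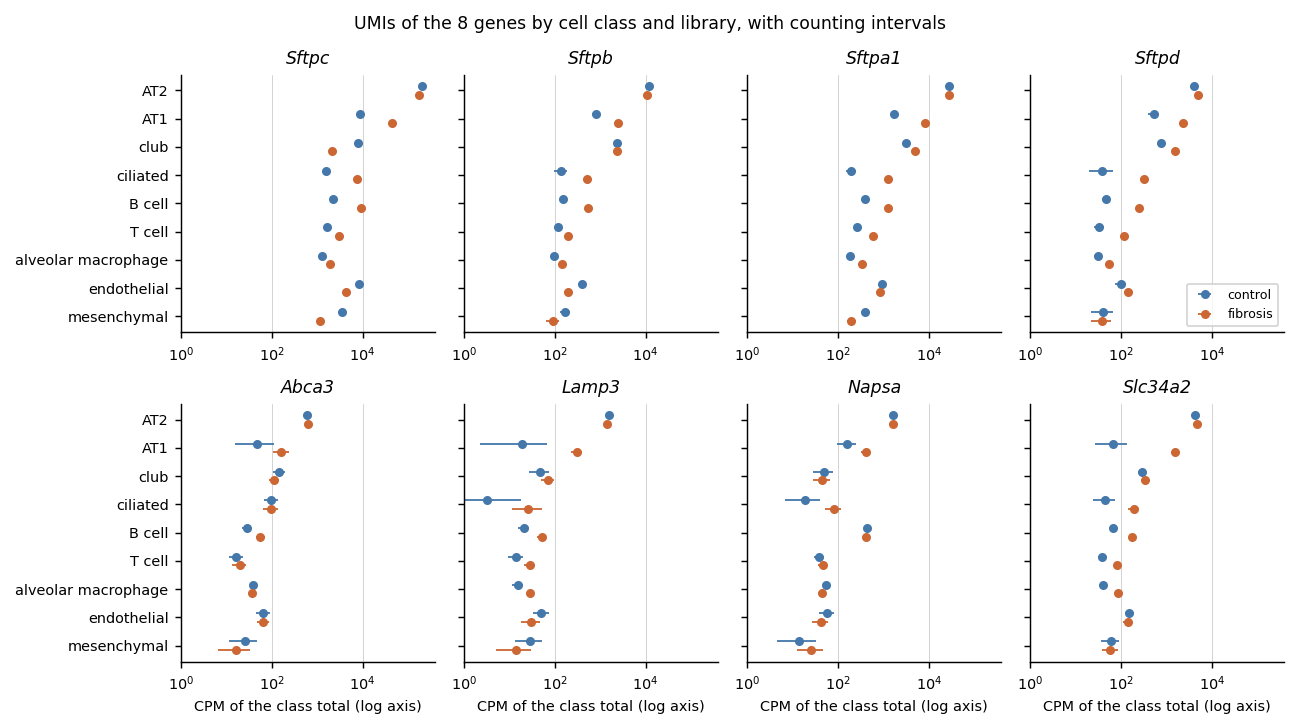
CPM of each of the 8 genes (horizontal log axis) in 9 cell classes, with counting intervals (bars), for control (blue) and fibrosis (orange). AT2 cells are highest for all 8 genes in both libraries, from 606 CPM (Abca3) to 202975 CPM (Sftpc) in control.

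A few cells carried much of the signal in the other classes. Cells in which the 8 genes exceeded 5% of UMIs, a limit set after the values were seen, were 3 of 1001 B cells in control and 8 of 479 in fibrosis. They held 23.97% and 78.7% of the B cells' UMIs of the 8 genes. Over all B cells Sftpc went from 2271 to 9103 CPM and 7 of 8 genes were at least 1.5-fold higher in fibrosis, against 7.06% of 4719 genes. Without those cells Sftpc was at 1714 CPM in control and 1648 CPM in fibrosis (log2 ratio -0.06, -0.13 to 0.02). In the same B cells the ratio was 2.25-fold for Sftpd and 1.62-fold for Abca3 (25.7 and 41.6 CPM, 65 and 61 UMIs). For Slc34a2 it was 1.58-fold (41.9 and 66.2 CPM, 106 and 97 UMIs). The 7.06% covers all B cells, and no such share of all genes is given for this smaller set. In AT1 cells, the flat cells of the gas-exchange surface, all 8 genes were at least 1.5-fold higher in fibrosis, against 15% of 5719 genes, but 1 of 24 control and 8 of 39 fibrosis cells held 86.8% and 91.0% of the UMIs. Without them Sftpc was at 1287 CPM in 23 control cells and 4444 CPM in 31 fibrosis cells. In ciliated cells 6 of the 7 genes compared were higher, against 14.1% of 6708 genes, and Lamp3 was below a mean of 20 CPM. Of 52 fibrosis ciliated cells, 1 cell held 80.2% of the UMIs. Without it Sftpc was at 1528 and 1439 CPM.

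Sftpd was the gene whose low level outside AT2 cells differed most between the libraries in B and T cells. In the cells up to the 5% limit it went from 28.4 to 64.1 CPM in B cells (72 and 94 UMIs, 2.25-fold) and from 20.8 to 65.0 CPM in T cells (39 and 112 UMIs, 3.12-fold). The same cells showed 0.962-fold and 1.05-fold for Sftpc. Per 1000 Sftpc UMIs, Sftpd stood at 16.6 and 38.9 in B cells, and at 20.2 and 28.1 in AT2 cells, in control and fibrosis.

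Club cells, secretory cells of the small airways, departed from the AT2 proportions for Sftpb, Sftpa1, Sftpd, Abca3 and Slc34a2. In the 28 control and 51 fibrosis club cells up to the 5% limit, Sftpc stood at 916 and 1235 CPM, below the 1363 and 1425 CPM of T cells chosen the same way. Sftpb in those club cells was at 2091 and 2226 CPM against 93.4 and 106 CPM in T cells. Sftpa1 was at 1993 and 4638 CPM against 197 and 254 CPM, and Sftpd at 611 and 1545 CPM against 20.8 and 65.0 CPM. Slc34a2 was at 85.5 and 224 CPM against 33.1 and 57.4 CPM. Per 1000 Sftpc UMIs, club cells had 2284 Sftpb UMIs in control and 1803 in fibrosis, where AT2 cells had 58.5 and 61.5 and T cells 68.5 and 74.5. For Abca3 the values were 128 and 85.3 in club cells (37 and 54 UMIs), 2.99 and 3.57 in AT2 cells and 11.4 and 12.2 in T cells. Lamp3 had 0 UMIs in the control club cells (exact upper limit 11.7 CPM) and 54.6 CPM in the fibrosis club cells. Over all club cells, without the 5% limit, Slc34a2 had 37.2 and 160 UMIs per 1000 Sftpc UMIs, against 20.8 and 27.2 in AT2 cells.

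Between libraries, over all 32 control and 53 fibrosis club cells, Sftpa1 went from 3228 to 4922 CPM (log2 ratio 0.61, 0.51 to 0.71) and Sftpd from 777 to 1549 CPM (1.00, 0.80 to 1.20). Sftpb was at 2388 and 2320 CPM (-0.04, -0.17 to 0.09). Here 2 of 8 genes were past 1.5-fold higher and Sftpc, at 7890 and 2113 CPM, past 1.5-fold lower. Of 2820 genes 25.4% were past that limit upwards and 10.1% downwards, so such a difference was common in these few cells. In the control club cells 4 cells over the 5% limit held 63.9% of the UMIs of the 8 genes, and in fibrosis 2 held 13.7%. Scgb1a1, the main secreted protein of club cells, took 54.6% of club UMIs in control and 45.6% in fibrosis. With it left out of the total, the ratio of Sftpa1 was 0.35 and that of Sftpd 0.74.

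**Figure D5:**
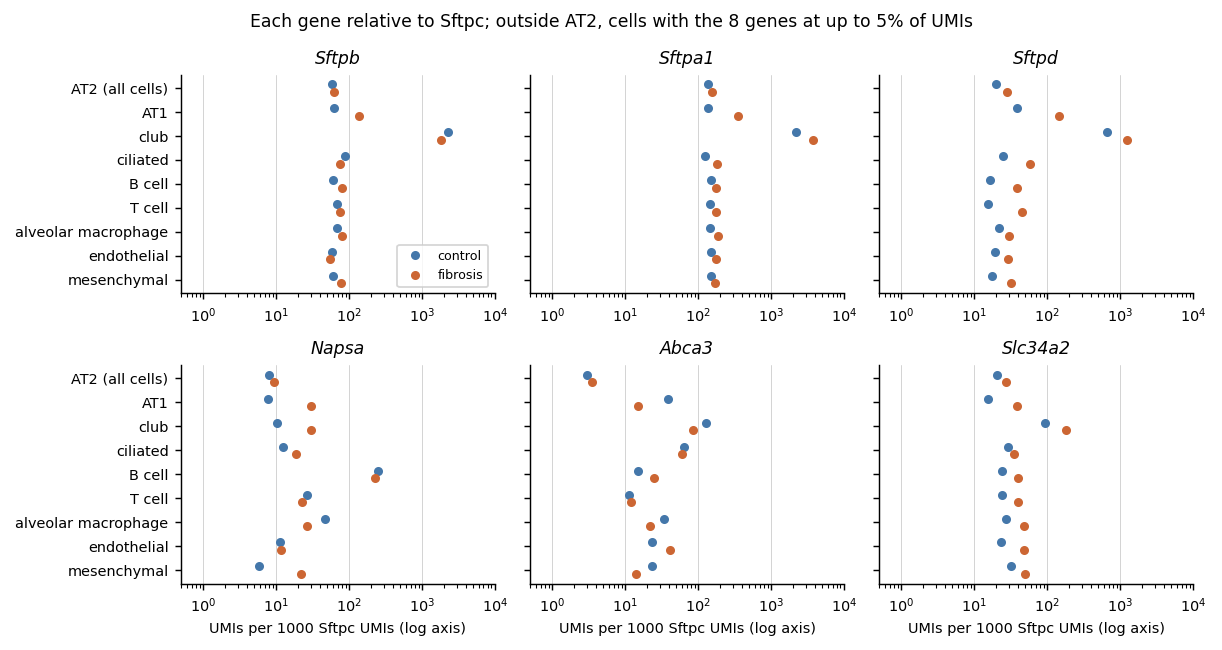
UMIs of 6 genes per 1000 Sftpc UMIs (horizontal log axis) in all AT2 cells and, in other classes, in cells with the 8 genes at up to 5% of UMIs, control in blue and fibrosis in orange. Club cells lie far to the right for Sftpb, Sftpa1 and Sftpd (2284 Sftpb UMIs in control), and B cells for Napsa (251 in control).

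Napsa in B cells also departed from the AT2 proportion. B cells had 431 CPM of Napsa in control and 419 CPM in fibrosis, against 38.3 and 45.9 CPM in T cells. Without the cells over the 5% limit the values were 431 and 372 CPM in B cells and 36.3 and 32.5 CPM in T cells. After thinning, 45.1% of the 998 control and 40.3% of the 471 fibrosis B cells had a Napsa UMI, against 2.56% and 4.62% of T cells. Per 1000 Sftpc UMIs these B cells had 251 and 226 Napsa UMIs, and AT2 cells 8.12 and 9.47. Over all B cells, Napsa stood 3.83-fold and 3.97-fold below its level in AT2 cells. Migratory dendritic cells, only 9 in control and 75 in fibrosis, had 13 and 59 Napsa UMIs (281 and 149 CPM). Exons of Gm15396, on the opposite strand, overlap those of Napsa (chr7:44572380-44586862, plus), and that gene had 1 UMI in control and 2 in fibrosis B cells.

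Abca3 was above its T cell level in several classes. It was at 97.5 CPM in control and 93.9 CPM in fibrosis ciliated cells (31 and 29 UMIs) and at 145 and 113 CPM in club cells, and at 16.5 and 19.5 CPM in T cells. Alveolar macrophages had 39.0 and 35.8 CPM, endothelial cells 64.2 and 64.6 CPM, and B cells 28.2 and 56.2 CPM. AT2 cells were 6.22-fold and 6.69-fold above ciliated cells and 4.17-fold and 5.55-fold above club cells, where the counting intervals of ciliated and club cells overlapped. Lamp3, which marks mature dendritic cells in people, had 0 and 10 UMIs in migratory dendritic cells, at 25.2 CPM in fibrosis against 27.6 CPM in T cells.

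Of 55 genes compared from the 5 lists of genes that act with the 8 in surfactant production, 2 were past 1.5-fold in AT2 cells (3.64%), beside 3.69% of all genes compared. Of 12 regulators, 11 reached 20 CPM, 0 were past 1.5-fold in either direction, and the median log2 ratio was -0.04. Nkx2-1, whose product binds the promoters of surfactant genes, was at 364 CPM in control and 354 CPM in fibrosis (-0.04, -0.13 to 0.05). Klf5, a zinc-finger factor, and Foxa1, a forkhead factor, had the lowest ratios at -0.56 (-0.89 to -0.22) and -0.31 (-0.56 to -0.07), and Stat3 and Nr3c1, the glucocorticoid receptor gene, the highest at 0.25 and 0.10.

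Of 18 lipid synthesis genes, 15 were compared, 1 was past 1.5-fold higher and 0 lower, with a median of 0.11. Acsl4, a fatty acid CoA ligase, went from 268 to 403 CPM (0.59, 0.49 to 0.69), and Scd1, a fatty acid desaturase, from 5943 to 7800 CPM (0.39, 0.37 to 0.41). Chka and Pcyt1a, enzymes of phosphatidylcholine synthesis, stood at -0.14 (-0.29 to 0.01) and -0.25 (-0.50 to 0.00). Of 19 lamellar body and traffic genes, 12 were compared and 0 were past 1.5-fold, with a median of 0.09. The highest ratios were those of Atp11a, a phospholipid flippase (0.52), and Ap3b1, a subunit of the AP-3 adaptor (0.50), and the lowest those of Lpl, a lipase (-0.29), and Ap3d1, another AP-3 subunit (-0.14).

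Of 15 genes of protein processing and folding, 14 were compared, 1 was past 1.5-fold higher and 0 lower, with a median of 0.17. Dnajb9, a chaperone of the endoplasmic reticulum, went from 31.6 to 53.9 CPM (147 and 399 UMIs, log2 ratio 0.77, 0.49 to 1.05), and Pdia4, a disulfide isomerase, from 40.0 to 58.3 CPM (0.54). Furin was at -0.31 (-0.55 to -0.08) and Ctsh, a cathepsin that takes part in cutting pro-SP-B, at 0.00. Of 7 genes of secretion and its feedback, 3 were compared and 0 were past 1.5-fold. They were Adora2b (0.41), Sfta2 (0.27) and Adgrf5, a receptor that limits surfactant pool size (-0.04). The medians of these lists stand beside 0.05 for all 4395 genes.

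Across the 10 classes of both libraries (20 points), the genes whose log2(CPM + 1) profile was most like the mean profile of the 8 were Sfta2 (Pearson r 0.97), Slco4c1 (0.97), S100g (0.96), Pla2g1b (0.95) and Egfl6 (0.93). The points share libraries and free RNA. Within AT2 cells, Lyz2, Wfdc2 and Gm42418 had the highest mean Spearman correlation with the summed 8 genes, at 0.43, 0.43 and 0.34.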

How the data were processed

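UMI counts per gene and cell are the authors' deposited matrices. Cell Ranger 1.3, bcl2fastq and the mm10 build are named in the submitters' processing notes, while the annotation, the use of strand and any other setting are not given in the sources used here. The 8 genes and all gene lists were chosen with earlier results of these data known.

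Cells with at least 200 genes and at most 10% mitochondrial UMIs were kept. AT2 cells had at least 2 Cxcl15 and 1 Etv5 UMIs. AT1 and ciliated cells had at least 4 detected genes of their marker panel and other classes 3, with club panel UMIs at 1% of the total or more. Cells in 2 gates (347 control, 493 fibrosis) were left out, as were epithelial, endothelial and mesenchymal cells with 3 immune genes. Doublets were otherwise kept: the scrublet caller in scanpy 1.11.5 marked 0.162% of control and 2.42% of fibrosis cells, too few in control to rely on, so leaving out an equal top share of scores was an alternative.

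UMIs were summed per class and library and given as CPM (scaled to 1000000 UMIs of the class), with exact Poisson, conditional binomial or Clopper-Pearson 95% intervals (scipy 1.17.1). No test was made, as each group has 1 library. "Past 1.5-fold" was read over genes with a mean of at least 20 CPM. Correlations used cells thinned to 1400 UMIs. The ratio script was tested on simulated data. Named genes were the 8, the 2 highest and 2 lowest ratios of each pathway list (all where a list had 3), the 5 closest profiles and the 3 highest correlations. Nkx2-1 was added after its values were seen, as were Lcn2, Scgb1a1 and Gm15396. Positions are from GENCODE M21. The alternatives changed the gate, scaling, weighting, depth, mitochondrial limit, doublets, free RNA (levels of all B cells subtracted) and shared barcodes.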

Additional observations from a re-analysis of the deposited data

Results flagged for a closer look

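Sftpc, Sftpb and Lamp3 were lower in fibrosis in AT2 cells but higher in AT1, ciliated and B cells, with counting intervals that did not hold 0. The difference between classes was not tested. In AT2 cells the log2 ratios were -0.21 for Sftpc, -0.13 for Sftpb and -0.11 for Lamp3. Sftpc had 2.35 in AT1 cells, 2.32 in ciliated cells and 2.00 in B cells. Sftpb had 1.63, 1.91 and 1.78 in the same classes. Lamp3 had 4.04 (2 control and 53 fibrosis UMIs), 3.04 (1 and 8 UMIs) and 1.32. In ciliated cells it was below a mean of 20 CPM. The other classes went both ways. In T cells and alveolar macrophages Sftpc (0.86 and 0.59), Sftpb and Lamp3 were higher. In endothelial and mesenchymal cells Sftpc (-0.90 and -1.58), Sftpb and Lamp3 were lower, with Lamp3 intervals that held 0. In club cells Sftpc was lower (-1.90), while the intervals of Sftpb and Lamp3 held 0. Without cells in which the 8 genes exceed 5% of UMIs, Sftpc was at 1.79 in AT1, -0.09 in ciliated and -0.06 in B cells. It was then at 0.06 in T cells, 0.49 in alveolar macrophages, -0.32 in endothelial cells and 0.43 in club cells. That limit uses the 8 genes themselves, so these values are a description. Sftpb was then at 2.94 in AT1, -0.34 in ciliated and 0.35 in B cells. Lamp3 was then at 0.50 in B cells. It rested on 1 control and 7 fibrosis UMIs in AT1 cells, and on 1 and 4 in ciliated cells.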

How the results depend on the processing

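The log2 ratio of the summed 8 genes in AT2 cells was -0.16, and it was negative under all 14 alternatives, from -0.23 to -0.14. It was -0.16 with Cxcl15 alone as the gate, with Leiden clusters, without equal top doublet scores and without shared barcodes (-0.157, -0.158, -0.158 and -0.157). It was -0.230 with no exclusion by other panels, -0.213 against the total without the 8 genes, -0.210 with median-of-ratios scaling, -0.207 with cells weighted equally, -0.210 with cells thinned, and -0.219 with B cell levels subtracted. It was -0.141 at a 5% mitochondrial limit and -0.137 with none. These exceeded the counting interval, and the cause was not tested. The subtracted levels were those of all B cells. In fibrosis, 8 of 479 B cells held 78.7% of the B cells' UMIs of the 8 genes. Napsa in B cells, at 431 CPM in control and 419 CPM in fibrosis, was also well above its T cell level. What the subtraction shows about free RNA is therefore limited. No gene of the 8 passed 1.5-fold under any of the 14. Sftpc (-0.28 to -0.17), Sftpb (-0.20 to -0.12) and Lamp3 (-0.19 to -0.05) stayed negative, and Sftpd (0.16 to 0.30) and Slc34a2 (0.10 to 0.25) positive. Sftpa1 (-0.07 to 0.01), Napsa (-0.05 to 0.06) and Abca3 (-0.02 to 0.19) took both signs. Of all genes, 7.14% were past 1.5-fold at a mean of 5 CPM and 3.74% at 50. No paired analysis was possible because each group has 1 library, though both labels carry the same mouse number. Depth limits Abca3, Lamp3 and Napsa most, at thinned medians of 1, 2 and 2 UMIs per AT2 cell.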
